A study of Homo sapiens with 15 samples.

Results

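The heat shock chaperones described here are 10 genes, HSPA1A, HSPA1B, DNAJB1, HSPH1, HSPA8, HSP90AA1, HSPD1, HSPE1, HSPB1 and BAG3, out of 57500 genes counted in each library. They were chosen by name, and the row of each was found through its Ensembl identifier. All 10 were found, and all 10 passed the filter on low counts, which left 15517 genes for testing. Their expression was measured by RNA sequencing in the human cell line K562. It was established from a chronic myeloid leukaemia, while the labels call its cells lymphoblasts.

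The study had 15 libraries in 5 groups of 3, all labelled as taken after 1 h. Cells transfected with Cas9FCPF together with sgRNA were given JQ1-FCPF, and cells transfected with Cas9FCPF without sgRNA were given the same compound. A second pair of groups, with and without sgRNA, was given JQ1 in its place, and both compounds were used at 1 µM. The control libraries carry the labels WT and NT, but DMSO is named in the text of the series, and nothing states that control cells were transfected. A comparison with the control therefore covers transfection, Cas9FCPF, compound and, in the groups that had it, sgRNA together. Within such a comparison these cannot be told apart. JQ1 is a small molecule that displaces the BET proteins, readers of acetylated histones, from chromatin. JQ1-FCPF takes its name from JQ1 and from the FCPF peptide tag that Cas9FCPF carries. The title of the series names dCas9, the form that binds DNA without cutting it, whereas the labels name Cas9, and the labels do not name the sgRNA target. Whether replicates came from separate cultures is not stated. The p-values then reflect the spread among these libraries alone, and that spread may be technical.

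Chaperones bind unfolded or partly folded proteins and keep them from aggregating. Hsp70 proteins (HSPA1A, HSPA1B and HSPA8 here) grip a client in a cycle of ATP hydrolysis that is started by J-domain partners such as DNAJB1 and reset by nucleotide exchange factors such as HSPH1 and BAG3. Hsp90 (HSP90AA1) takes over clients that are close to their folded state, HSPD1 and HSPE1 form the Hsp60 and Hsp10 folding chamber of mitochondria, and HSPB1 is a small heat shock protein that holds clients without ATP. When unfolded protein accumulates, the factor HSF1 is released from chaperones, forms trimers and binds heat shock elements, which are inverted repeats of the unit GAA, upstream of these genes. In cancer cell lines many of them are transcribed at a high level without heat.

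Library totals were 12625669 to 17544518 counts, with 22970 to 27248 genes detected, and the 10 chaperone genes took 0.578 to 0.812% of all counts. Scores on the first principal component of all tested genes were 16.8 to 24.6 in the 6 JQ1 libraries and -21.8 to -18.4 in JQ1-FCPF without sgRNA, against -24.7 to -20.9 in the control. Replicates 1 and 3 of JQ1-FCPF with sgRNA scored -16.7 and -14.8, and replicate 2 of that group stood apart at 32.2. Replicate 1 of JQ1 with sgRNA also stood apart, by its mitochondrial share of 7.46% of counts, against at most 5.98% in any other library. Fits without 1 or both of these libraries are given below. Erythroid markers, which K562 cells are known to express, were detected at 8 of 8, with a summed level of 1510 to 2200 CPM (each library's counts scaled to the same total). Of the B cell markers, MS4A1, which encodes CD20, was at most 0.0582 CPM in any library, CD79A at most 0.551 and CD79B at most 0.288. Of the T and NK cell markers, CD3D lay between 17.4 and 32.4 CPM. The others of that list, CD3E, NKG7 and CD247, were at most 0.655, 2.38 and 0.147 CPM.

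Sequences upstream of 6 of these genes are shown because they carry matches to the heat shock element, the sequence HSF1 binds. Each line is the 250 bases before a gene start as RefSeq gives it for GRCh38.p14, read 5′ to 3′ on the strand of the gene. Capitals mark every match to a pair of inverted units, GAANNTTC or TTCNNGAA, where overlapping matches merge into 1 run. Both patterns read the same on either strand.
HSPA1A, chr6:31815293-31815542, plus strand: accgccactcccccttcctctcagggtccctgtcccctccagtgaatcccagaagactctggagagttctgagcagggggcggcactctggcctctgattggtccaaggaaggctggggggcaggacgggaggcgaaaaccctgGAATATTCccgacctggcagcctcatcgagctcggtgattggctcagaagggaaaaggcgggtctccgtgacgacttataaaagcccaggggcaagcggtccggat
HSPA1B, chr6:31827488-31827737, plus strand: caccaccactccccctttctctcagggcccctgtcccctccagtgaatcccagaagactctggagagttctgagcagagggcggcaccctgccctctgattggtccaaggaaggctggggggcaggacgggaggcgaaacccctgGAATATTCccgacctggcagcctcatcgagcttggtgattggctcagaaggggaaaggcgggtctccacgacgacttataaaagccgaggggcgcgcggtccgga
DNAJB1, chr19:14518398-14518647, minus strand: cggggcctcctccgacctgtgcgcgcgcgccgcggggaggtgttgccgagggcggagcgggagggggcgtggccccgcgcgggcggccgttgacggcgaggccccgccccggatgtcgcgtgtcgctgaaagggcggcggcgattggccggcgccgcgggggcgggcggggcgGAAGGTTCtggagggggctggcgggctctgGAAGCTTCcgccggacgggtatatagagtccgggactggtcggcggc
HSPA8, chr11:123062137-123062386, minus strand: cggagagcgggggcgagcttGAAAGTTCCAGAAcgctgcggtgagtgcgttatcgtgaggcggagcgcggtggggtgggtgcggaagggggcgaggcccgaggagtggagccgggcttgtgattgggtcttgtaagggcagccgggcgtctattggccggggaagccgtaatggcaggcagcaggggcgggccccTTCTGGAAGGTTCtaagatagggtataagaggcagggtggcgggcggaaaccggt
HSP90AA1, chr14:102087045-102087294, minus strand: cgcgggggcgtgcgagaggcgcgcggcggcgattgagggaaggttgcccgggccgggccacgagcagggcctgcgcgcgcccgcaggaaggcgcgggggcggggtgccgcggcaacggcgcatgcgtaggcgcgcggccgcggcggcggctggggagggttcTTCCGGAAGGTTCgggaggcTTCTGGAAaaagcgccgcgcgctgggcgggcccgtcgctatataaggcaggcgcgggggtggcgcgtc
HSPD1, chr2:197499841-197500090, minus strand: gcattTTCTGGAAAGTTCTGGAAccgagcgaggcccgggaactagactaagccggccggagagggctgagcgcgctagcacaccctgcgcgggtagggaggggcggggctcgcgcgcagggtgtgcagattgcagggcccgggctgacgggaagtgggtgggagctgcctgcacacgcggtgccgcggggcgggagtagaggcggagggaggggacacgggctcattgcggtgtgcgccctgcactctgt

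All 10 genes had at least 1 start in the RefSeq table, with 14 starts in all, and 7 of the 10 genes held a pair within 250 bases of 1 start. Among all 35116 starts in the table, 11.6% held such a pair. Near-identical neighbours HSPA1A and HSPA1B each held 1 pair, 106 and 105 bases before the start, and their upstream sequences shared 235 of 251 aligned positions. DNAJB1 held 2 pairs, 77 and 47 bases before 1 of its starts. HSPA8 held 4, HSP90AA1 held 3 and HSPD1 held 3. These 3 genes alone among the 10 held 3 alternating units in a row (GAANNTTCNNGAA or TTCNNGAANNTTC), which 0.441% of all starts held. HSPB1 held 1 pair, 182 bases before its start, and the windows of HSPH1, HSPE1 and BAG3 held no match to these letters. A match is a description of the sequence and does not show binding.

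The files place HSPA1A at chr6:31815464-31817946 and HSPA1B at chr6:31827735-31830255, both on the plus strand as single-exon genes of the GRCh38 build. Of all 50-base windows in the longest HSPA1A transcript, 72.6% were also found in HSPA1B. A single read of 50 bases from much of either gene thus cannot be assigned by sequence, and longer or paired reads were not examined. The separate values of HSPA1A and HSPA1B are therefore uncertain. HSPE1 (chr2:197499994-197503457, plus strand) lies within the bounds of HSPD1 (chr2:197486581-197516737, minus strand), and these genes share 281 exonic bases. DNAJB1 (chr19:14514770-14529770, minus strand) shares 228 exonic bases with TECR, a lipid synthesis gene on the opposite strand. HSP90AA1 (chr14:102080738-102139699, minus strand) shares 197 with WDR20 on the opposite strand. Whether counting used strand is not given in the sources used here, so reads in these stretches may be shared. HSPE1 also shares 192 exonic bases with HSPE1-MOB4 on its own strand, where strand cannot separate reads. HSPE1-MOB4 had 0 to 7 counts per library. HSPA8 lies at chr11:123057489-123063230 and HSPH1 at chr13:31134974-31162388, both on the minus strand. HSPB1 lies at chr7:76302544-76304295 and BAG3 at chr10:119651370-119677819, both on the plus strand.

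Levels of different genes are compared per length, as CPM per kilobase of exon. In control cells HSP90AA1 stood first at 606 ± 44.0 CPM per kilobase (SD, n = 3), followed by HSPB1 at 355 ± 35.7. HSPA8, the constitutive Hsp70 also called Hsc70, followed at 227 ± 32.5 and HSPD1 at 188 ± 14.4, with overlapping ranges. HSPE1 stood at 143 ± 16.9. The stress-inducible Hsp70 genes were lower, HSPA1A at 85.8 ± 11.9 and HSPA1B at 76.0 ± 11.6, again with overlapping ranges. DNAJB1 at 42.5 ± 5.89, BAG3 at 31.5 ± 1.55 and HSPH1 at 19.3 ± 1.59 closed the order, and these last 3 did not overlap their neighbours. The length used is that of all listed exon blocks of a gene, 8390 bases for HSPH1 and 2747 for BAG3. It can exceed the length of the transcripts present, so the order depends on it. In CPM without length, HSPH1 at 161.9 stood above DNAJB1 at 155.9 and BAG3 at 86.4 in the control. The genes differed in how far they varied over the 15 libraries. DNAJB1 spanned a 3.19-fold range of CPM from its lowest to its highest library, HSPA1B 2.75-fold, HSPA8 2.70-fold and HSPA1A 2.24-fold. HSPB1 spanned 1.79-fold, HSPH1 1.74-fold, HSPE1 1.67-fold, HSPD1 1.52-fold, HSP90AA1 1.47-fold and BAG3 1.40-fold.

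**Figure D1:**
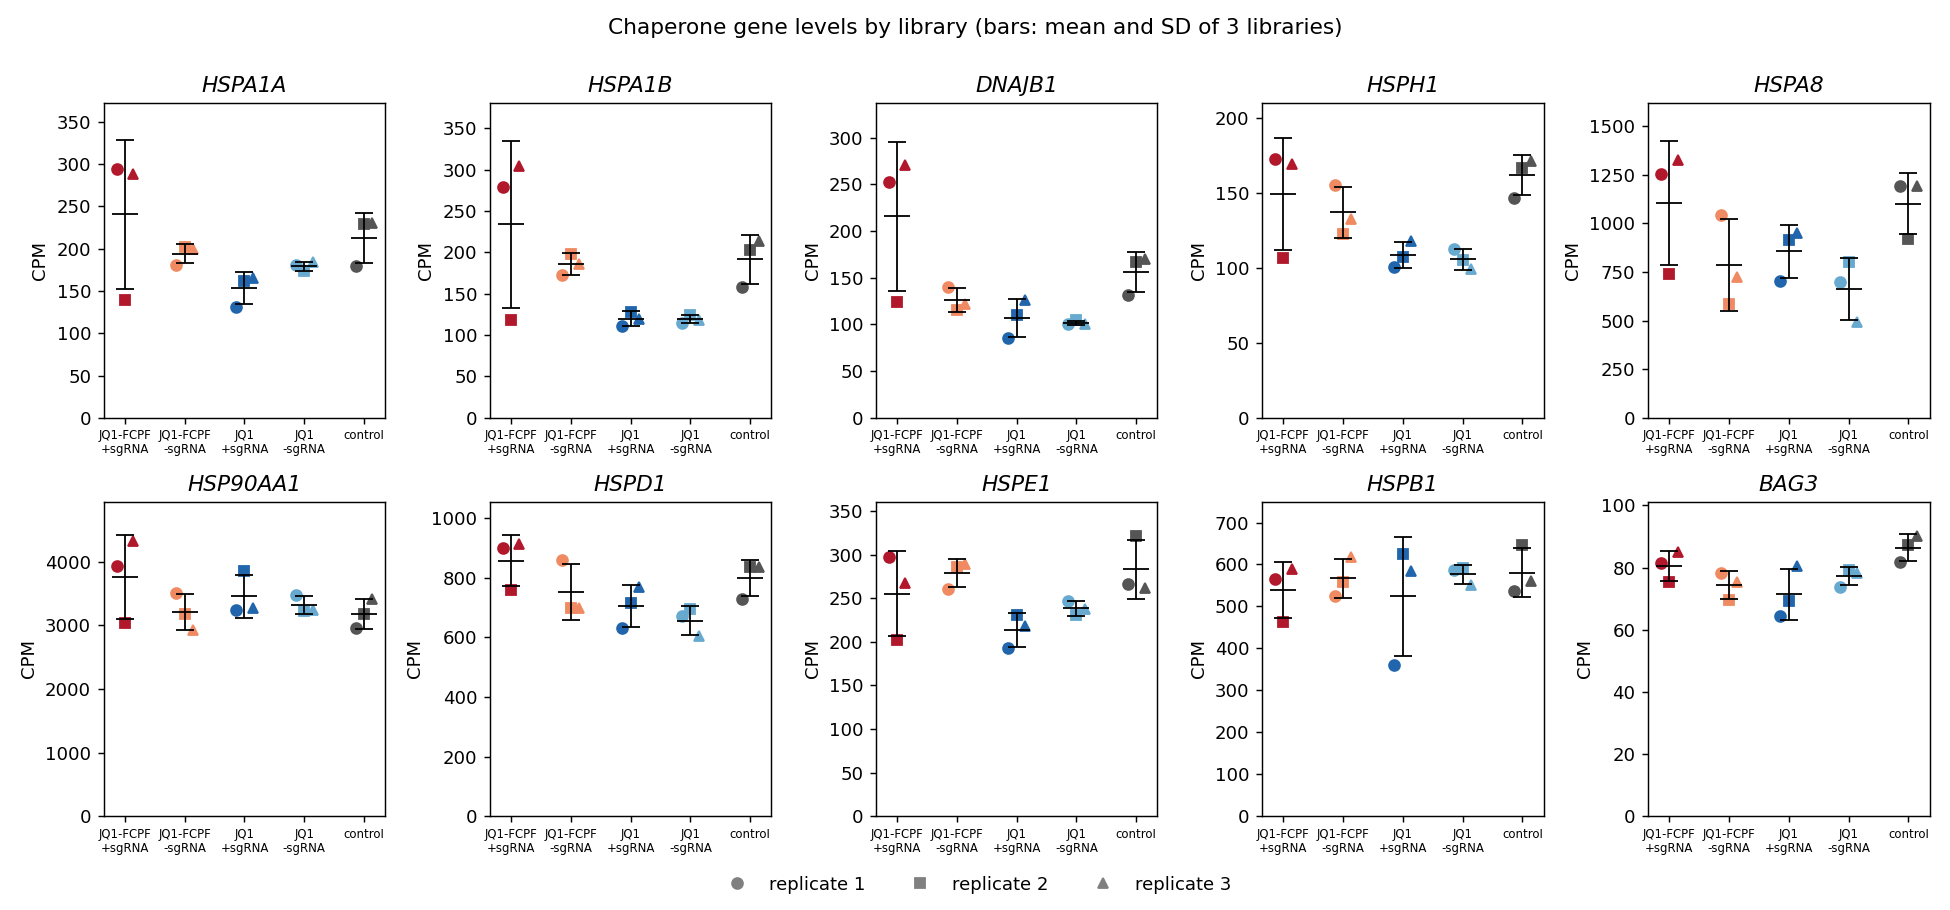
Level of each chaperone gene in CPM (vertical axes, from 0) in the 15 libraries, by group. Points are libraries, with circles for replicate 1, squares for replicate 2 and triangles for replicate 3, and black bars are the mean ± SD of 3 libraries. Replicates 1 and 3 of JQ1-FCPF with sgRNA lie above all other libraries for HSPA1A, HSPA1B and DNAJB1, while replicate 2 lies below the control libraries for the same 3 genes.

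Among the genes of the Hsp70 machine, the J-domain partner DNAJB1 varied most. DNAJB1 measured 252, 124 and 271 CPM in JQ1-FCPF with sgRNA (replicates 1, 2 and 3), 140, 116 and 122 CPM in JQ1-FCPF without sgRNA, 85.0, 111 and 126 CPM in JQ1 with sgRNA, 100, 104 and 100 CPM in JQ1 without sgRNA, and 131, 167 and 170 CPM in the control. Its 2 highest libraries were replicates 1 and 3 of JQ1-FCPF with sgRNA, and replicate 2 of that group lay below the control libraries. HSPA1A, an inducible Hsp70, measured 294, 139 and 288 CPM in JQ1-FCPF with sgRNA, 181, 202 and 200 CPM in JQ1-FCPF without sgRNA, 131, 162 and 166 CPM in JQ1 with sgRNA, 181, 173 and 184 CPM in JQ1 without sgRNA, and 179, 229 and 230 CPM in the control. The libraries of JQ1 with sgRNA lay below those of JQ1 without sgRNA and of the control, without overlap. HSPA1B, the neighbouring inducible Hsp70, measured 280, 119 and 304 CPM in JQ1-FCPF with sgRNA, 172, 199 and 187 CPM in JQ1-FCPF without sgRNA, 111, 129 and 120 CPM in JQ1 with sgRNA, 115, 124 and 119 CPM in JQ1 without sgRNA, and 159, 203 and 214 CPM in the control. All 6 JQ1 libraries lay below the control and below JQ1-FCPF without sgRNA, with no overlap.

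HSPA1A and HSPA1B together measured 258 to 593 CPM in JQ1-FCPF with sgRNA, 353 to 401 in JQ1-FCPF without sgRNA, 242 to 291 in JQ1 with sgRNA, 295 to 303 in JQ1 without sgRNA and 338 to 444 in the control. HSPA1B made up 46.0 to 51.3% of this sum in JQ1-FCPF with sgRNA and 48.3 to 49.6% in JQ1-FCPF without sgRNA. It made up 42.0 to 45.7% in JQ1 with sgRNA and 38.8 to 41.7% in JQ1 without sgRNA, against 46.9 to 48.1% in the control. The share was thus lower in all 6 JQ1 libraries than in all 9 others, as a description with no test.

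HSPH1, the Hsp110 nucleotide exchange factor, measured 172, 107 and 169 CPM in JQ1-FCPF with sgRNA, 156, 123 and 133 CPM in JQ1-FCPF without sgRNA, 101, 108 and 118 CPM in JQ1 with sgRNA, 113, 105 and 99.3 CPM in JQ1 without sgRNA, and 147, 167 and 172 CPM in the control. Again the 6 JQ1 libraries all lay below the control. HSPA8 measured 1253, 739 and 1325 CPM in JQ1-FCPF with sgRNA, 1045, 587 and 724 CPM in JQ1-FCPF without sgRNA, 702, 914 and 952 CPM in JQ1 with sgRNA, 701, 800 and 491 CPM in JQ1 without sgRNA, and 1194, 919 and 1191 CPM in the control. Its spread within a group was wide, with an SD of 319.8 CPM in JQ1-FCPF with sgRNA and 157.9 CPM in the control, and replicate 3 of JQ1 without sgRNA was its lowest library. BAG3, which links Hsp70 to small heat shock proteins and to autophagy, stayed between 64.4 and 90.3 CPM in all 15 libraries.

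HSP90AA1, which encodes the inducible Hsp90 alpha, averaged 3763 ± 660.1 CPM in JQ1-FCPF with sgRNA, 3210 ± 288 in JQ1-FCPF without sgRNA, 3455 ± 342 in JQ1 with sgRNA, 3319 ± 144 in JQ1 without sgRNA and 3181 ± 231 in the control (SD, n = 3 each). These groups overlapped. HSPE1, the mitochondrial Hsp10, measured 297, 202 and 267 CPM in JQ1-FCPF with sgRNA, 261, 286 and 290.0 CPM in JQ1-FCPF without sgRNA, 193, 231 and 218 CPM in JQ1 with sgRNA, 247, 230.3 and 238 CPM in JQ1 without sgRNA, and 266, 322 and 261 CPM in the control. The 6 JQ1 libraries lay below the control without overlap. Its partner HSPD1, the mitochondrial Hsp60, averaged 858 ± 85.4 CPM in JQ1-FCPF with sgRNA, 753 ± 92.8 in JQ1-FCPF without sgRNA, 706 ± 69.7 in JQ1 with sgRNA, 657 ± 47.5 in JQ1 without sgRNA and 799.8 ± 61.1 in the control (SD, n = 3 each). HSPB1 was between 361 and 647 CPM, with its lowest value in replicate 1 of JQ1 with sgRNA, where the next lowest library of that group measured 585 CPM.

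**Figure D2:**
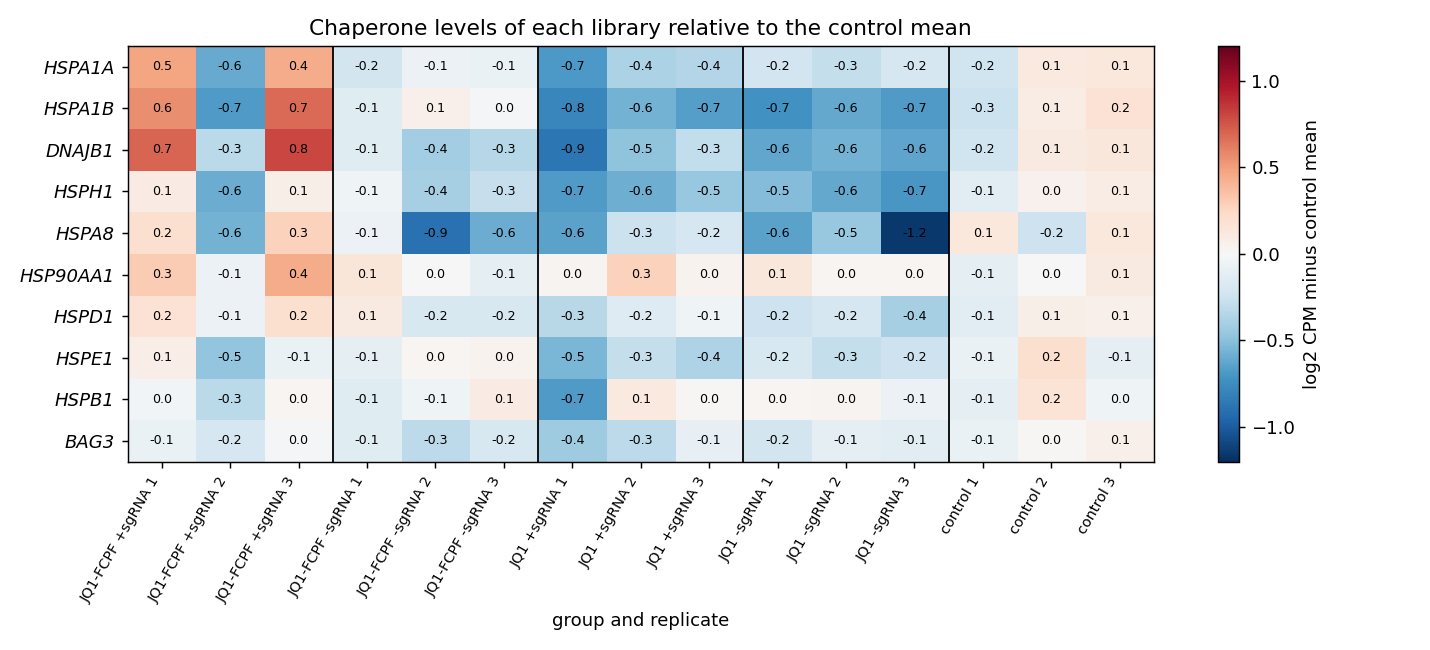
Level of each gene (rows) in each library (columns, by group and replicate) as log2 CPM minus the control mean, printed in the cells and coloured from blue (lower) to red (higher). In JQ1-FCPF with sgRNA, 8, 0 and 8 of the 10 genes lie above the control mean in replicates 1, 2 and 3.

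The first comparison addresses the sgRNA in cells given JQ1-FCPF. DNAJB1 was higher with sgRNA than without, at 216 ± 80.2 CPM against 126 ± 12.7 CPM (SD, n = 3 each), a log2 fold change of 0.78 ± 0.19 (SE, adjusted p = 0.0193, edgeR's quasi-likelihood test with Benjamini-Hochberg adjustment over all tested genes). It was the 1 chaperone gene of 10 called, and it was called upward, as were 2.06% of all tested genes. None of the 10 genes separated the groups completely, whereas 22.6% of all tested genes did. Its groups overlapped, because replicate 2 with sgRNA lay between the libraries without sgRNA. HSPA8 had a log2 fold change of 0.49 with an interval of 0.05 to 0.94 and an edgeR adjusted p of 0.183, HSPA1A had 0.31 (-0.07 to 0.69) and HSPA1B had 0.33 (-0.09 to 0.76). The median over the 10 genes was 0.21, beside 0.01 over all tested genes, and the lowest value was -0.13, of HSPE1.

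These values rest on how the 3 libraries with sgRNA divide. Replicate 2 was the lowest of its group for all 10 chaperone genes, and it was the lowest for 40.1% of all tested genes. The mean of replicates 1 and 3 was 2.46-fold the value of replicate 2 for HSPA1B, 2.12-fold for DNAJB1, 2.09-fold for HSPA1A and 1.75-fold for HSPA8. It was 1.60-fold for HSPH1, 1.39-fold for HSPE1, 1.36-fold for HSP90AA1, 1.25-fold for HSPB1, 1.19-fold for HSPD1 and 1.11-fold for BAG3. The 4 most divided genes are thus the Hsp70 genes and their J-domain partner. Without replicate 2, edgeR called 4 of the 10 genes higher with sgRNA, as it did 1.76% of all genes: DNAJB1 by 1.06 ± 0.13 on the log2 scale (SE, adjusted p = 1.13e-05), HSPA8 by 0.72 ± 0.20 (adjusted p = 0.0300), HSPA1B by 0.65 ± 0.11 (adjusted p = 0.00054) and HSPA1A by 0.59 ± 0.11 (adjusted p = 0.0019). Without replicate 1, or without replicate 3, none of the 10 was called, and the same held without replicate 2 or replicate 3 of the group without sgRNA. On the first principal component replicate 2 lay beyond the JQ1 libraries, at 32.2 against their 16.8 to 24.6, and away from replicates 1 and 3. On the second component it lay on the side of its own group, at -16.4 beside -40 and -27.2 in replicates 1 and 3. There replicate 1 of JQ1 with sgRNA scored -12.5, and all remaining libraries scored 4.5 or more. What sets replicate 2 of JQ1-FCPF with sgRNA apart, and whether it matches its label, was not tested. Each mean and call of that group therefore holds for the libraries as labelled.

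**Figure D3:**
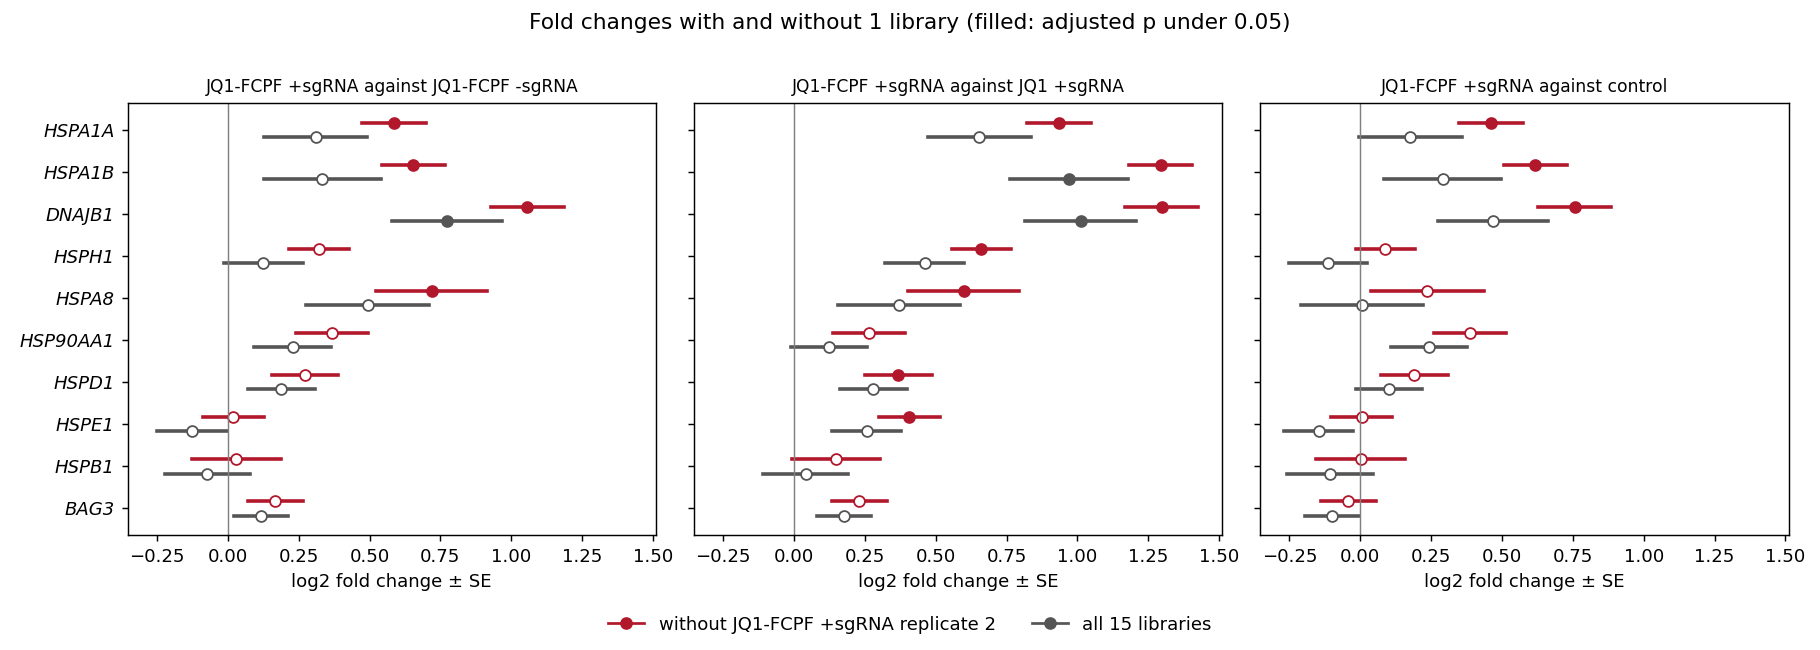
log2 fold change (horizontal axes) of each chaperone gene in JQ1-FCPF with sgRNA against JQ1-FCPF without sgRNA, JQ1 with sgRNA and the control, from edgeR. Red points leave out replicate 2 of JQ1-FCPF with sgRNA and grey points use all 15 libraries, bars are ± SE, and filled points have an adjusted p under 0.05. The genes called number 4, 7 and 3 in the 3 panels without that library, and 1, 2 and 0 with all libraries.

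The groups with and without sgRNA were also compared in cells given JQ1. None of the 10 genes was called by edgeR, none had an unadjusted p under 0.05, and DESeq2 called none. Of all tested genes 0.0129% were called, so this comparison had few calls of any kind. HSPA1A had the lowest log2 fold change, -0.23 (interval -0.61 to 0.15), and its libraries with sgRNA lay below those without, as was so for 8.51% of all tested genes. HSPA8 had the highest, 0.37 (-0.08 to 0.82). DNAJB1 had 0.08 (-0.33 to 0.48) and HSPA1B 0.01 (-0.42 to 0.44). The median over the 10 genes was 0.02. Intervals of this width do not show that the sgRNA left these genes as they were.

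Whether the sgRNA effect itself differed between JQ1-FCPF and JQ1 was tested as an interaction, which called none of the 10 genes, against 0.786% of all tested genes in either direction. DNAJB1 had an interaction of 0.70 (0.13 to 1.27) on the log2 scale with an edgeR adjusted p of 0.256, and HSPA1A had 0.54 (0.00 to 1.07) with 0.355. These 2 genes had an unadjusted p under 0.05, and DESeq2 called none. Without replicate 2 of JQ1-FCPF with sgRNA, 3 genes were called by edgeR, beside 0.686% of all genes called upward: DNAJB1 at 0.99 ± 0.18 (SE, adjusted p = 0.00281), HSPA1A at 0.82 ± 0.15 (adjusted p = 0.00385) and HSPA1B at 0.65 ± 0.15 (adjusted p = 0.0221).

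The next comparisons set each treated group against the control, and all 4 share the same 3 control libraries. In JQ1 without sgRNA, 4 of the 10 genes fell by edgeR's test, as did 6.23% of all tested genes. All 4 belong to the Hsp70 machine, as do HSPA1A and BAG3, which were not called. HSPA8 fell by 0.73 ± 0.22 on the log2 scale (SE, adjusted p = 0.0325), to 664 ± 158 CPM against 1101 ± 158 CPM in the control. HSPA1B fell by 0.69 ± 0.21 (edgeR adjusted p = 0.0350), to 119 ± 4.84 CPM against 192 ± 29.2 CPM. DNAJB1 fell by 0.62 ± 0.20 (edgeR adjusted p = 0.0417), to 102 ± 2.45 CPM against 156 ± 21.7 CPM. HSPH1 fell by 0.61 ± 0.14 (edgeR adjusted p = 0.00841), to 106 ± 6.83 CPM against 162 ± 13.3 CPM (SD, n = 3 each). DESeq2 called HSPH1 alone of these 4 (adjusted p = 0.00117), with adjusted p-values of 0.0512 for HSPA8, 0.0706 for HSPA1B and 0.0835 for DNAJB1. HSPA1A, the neighbour of HSPA1B, had -0.25 (-0.63 to 0.13) and was not called. With HSPA1A and HSPA1B summed into 1 row, that row had -0.44 ± 0.19 and an edgeR adjusted p of 0.14.

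Of the other genes, HSPD1 had a log2 fold change of -0.29 (-0.53 to -0.04), HSPE1 -0.25 (-0.50 to 0.01) and BAG3 -0.16 (-0.36 to 0.04) in JQ1 without sgRNA against the control, none of them called. HSP90AA1 had 0.06 (-0.22 to 0.34) and HSPB1 -0.01 (-0.32 to 0.30). For 7 of the 10 genes the libraries of JQ1 without sgRNA lay below those of the control without overlap, as they did for 20.6% of all tested genes, and the median log2 fold change was -0.27 beside 0.00 over all tested genes. The calls depend on single libraries. Without replicate 3 of the control, or without replicate 3 of JQ1 without sgRNA, none of the 10 was called, and HSPH1 then had edgeR adjusted p-values of 0.0570 and 0.0523. Without replicate 1 of JQ1 without sgRNA 1 gene was called, and without its replicate 2 or without replicate 2 of the control 2 were. The mitochondrial share of counts was 2.31 to 3.22% in these JQ1 libraries and 3.24 to 5.98% in the control, and its part in the result was not tested.

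JQ1 with sgRNA against the control gave 3 lower genes among the 10, beside 7.04% of all tested genes called lower. HSPA1B fell by 0.68 ± 0.21 on the log2 scale (SE, edgeR adjusted p = 0.0323), to 120 ± 8.97 CPM against 192 ± 29.2 CPM in the control. HSPH1 fell by 0.58 ± 0.14 (edgeR adjusted p = 0.0106), to 109 ± 8.76 CPM against 162 ± 13.3 CPM. HSPE1, the mitochondrial Hsp10, fell by 0.40 ± 0.12 (edgeR adjusted p = 0.0314), to 214 ± 19.5 CPM against 283 ± 33.5 CPM (SD, n = 3 each). DNAJB1 had -0.54 (-0.95 to -0.14) with an adjusted p of 0.0637 by edgeR, HSPA1A -0.48 (-0.85 to -0.10) with 0.0823 and BAG3 -0.28 (-0.47 to -0.08) with 0.0572. HSPA8 had -0.36 (-0.81 to 0.08), HSPD1 -0.18 (-0.43 to 0.07), HSPB1 -0.15 (-0.46 to 0.17) and HSP90AA1 0.12 (-0.16 to 0.40).

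For 6 of the 10 genes the libraries of JQ1 with sgRNA lay below the control without overlap, beside 17.2% of all tested genes, and the median was -0.38 beside 0.01 over all tested genes. Replicate 1 of JQ1 with sgRNA, the library with the highest mitochondrial share, was the lowest of its group for all 10 chaperone genes, as it was for 42.1% of all tested genes. Without it HSPH1 alone was called, with -0.52 (edgeR adjusted p = 0.0292), beside 5.7% of all genes called lower, and DNAJB1 had -0.40. Without replicate 2 of the control HSPH1 alone was called too, and without replicate 3 of the control none was. Without replicate 2 of JQ1 with sgRNA, HSPH1 and HSPE1 were called, and without its replicate 3, HSPH1 and BAG3. The part of the mitochondrial share in these values was not tested.

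JQ1-FCPF without sgRNA was compared with the control next. No gene of the 10 was called by edgeR or by DESeq2, where 0.00644% of all tested genes were called by edgeR, and log2 fold changes ran from -0.49 (-0.94 to -0.04) for HSPA8 to 0.01 (-0.27 to 0.29) for HSP90AA1. HSPA8 and BAG3 had an unadjusted p under 0.05. HSPA8 averaged 785 ± 235 CPM in JQ1-FCPF without sgRNA and 1101 ± 158 CPM in the control (SD, n = 3 each). HSPA1B had -0.05 (-0.47 to 0.38) and DNAJB1 -0.31 (-0.71 to 0.10), and intervals of this width do not show that the levels were alike. BAG3, with -0.22 (-0.42 to -0.02), was the 1 gene whose libraries lay below the control without overlap, as did 3.51% of all tested genes.

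JQ1-FCPF with sgRNA against the control gave no call among the 10 genes, beside 7.21% of all tested genes called in either direction. DESeq2 called none either. No gene of the 10 separated these groups, beside 25.1% of all tested genes. DNAJB1 had 0.47 (0.07 to 0.87) with an edgeR adjusted p of 0.152 and was the 1 gene with an unadjusted p under 0.05. HSPA1B had 0.29 (-0.14 to 0.72), HSP90AA1 0.24 (-0.04 to 0.52) and HSPA1A 0.18 (-0.20 to 0.55). Without replicate 2 of JQ1-FCPF with sgRNA, edgeR called 3 genes higher, as it did 2.25% of all genes: DNAJB1 by 0.76 ± 0.13 on the log2 scale (SE, adjusted p = 0.000505), HSPA1B by 0.62 ± 0.11 (adjusted p = 0.000923) and HSPA1A by 0.46 ± 0.11 (adjusted p = 0.0132). The same 3 genes, with both inducible Hsp70 genes and their J-domain partner, were those called in the interaction without that library. Both results rest on the same remaining libraries of JQ1-FCPF with sgRNA, so neither backs up the other.

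**Figure D4:**
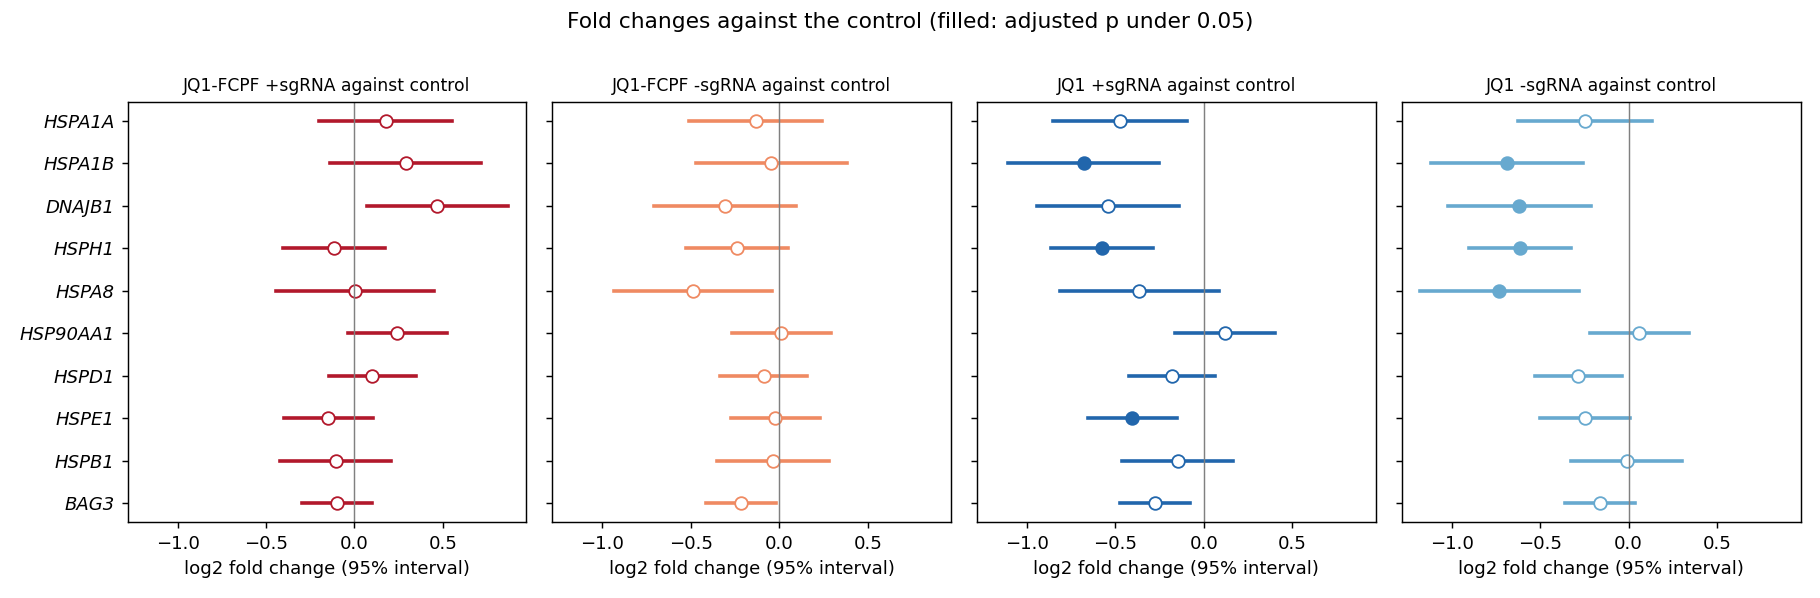
log2 fold change (horizontal axes) of each chaperone gene in the 4 treated groups against the control from edgeR with all 15 libraries. Bars are 95% intervals and filled points have an adjusted p under 0.05. The filled points are 3 genes in JQ1 with sgRNA and 4 in JQ1 without sgRNA, all below 0.

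The compounds, JQ1-FCPF and JQ1, were then compared at the same dose and time in cells with the same transfection, in 2 pairs of groups. With sgRNA, DNAJB1 was higher under JQ1-FCPF by 1.01 ± 0.20 on the log2 scale (SE, edgeR adjusted p = 0.00709), with 216 ± 80.2 CPM against 107 ± 20.6 CPM under JQ1. HSPA1B was higher by 0.97 ± 0.21 (edgeR adjusted p = 0.0135), with 234 ± 101 CPM against 120 ± 8.97 CPM (SD, n = 3 each). These were 2 of the 10 genes, beside 1.18% of all tested genes called higher. HSPA1A had 0.65 (0.27 to 1.03) with an edgeR adjusted p of 0.0544 and HSPH1 had 0.46 (0.17 to 0.75) with 0.0742. HSPB1 had 0.04 (-0.27 to 0.36), the smallest of 10 positive values, and the median was 0.32. No gene of the 10 separated the groups, whereas 15.5% of all tested genes did. Replicate 2 under JQ1-FCPF lay among the JQ1 libraries for 9 of the 10 genes and below them for HSP90AA1.

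Single libraries decided this comparison as well. Without replicate 2 of JQ1-FCPF with sgRNA, 7 genes were called higher by edgeR, as were 8.17% of all genes: HSPA1A, HSPA1B, DNAJB1, HSPH1, HSPA8, HSPD1 and HSPE1. DNAJB1 then had 1.30 ± 0.13 and HSPA1B 1.29 ± 0.11 (SE), against 0.37 ± 0.12 for HSPD1. Without replicate 1, or without replicate 3, of JQ1-FCPF with sgRNA none was called. A fit of the compared groups alone called none of the 10 genes, beside 0.0746% of all genes, and DESeq2 called 4.

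Without sgRNA, no chaperone gene was called between JQ1-FCPF and JQ1, by edgeR or DESeq2, whereas edgeR called 7.8% of all tested genes in either direction. HSPA1B had 0.64 (0.21 to 1.07) with an edgeR adjusted p of 0.0593, at 186 ± 13.2 CPM under JQ1-FCPF against 119 ± 4.84 CPM under JQ1 (SD, n = 3 each). HSPH1 had 0.38 (0.09 to 0.67) with 0.0996. These 2 genes had an unadjusted p under 0.05. For 5 genes, HSPA1B, DNAJB1, HSPH1, HSPD1 and HSPE1, all libraries under JQ1-FCPF lay above all under JQ1, as they did for 18% of all tested genes. HSPA1A had 0.11 (-0.26 to 0.49) and HSP90AA1 -0.05 (-0.33 to 0.23), and intervals of this width do not show that the compounds acted alike on them.

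Leaving out both libraries that stand apart, replicate 2 of JQ1-FCPF with sgRNA and replicate 1 of JQ1 with sgRNA, gave more chaperone genes called by edgeR in 7 of the 9 comparisons. Under JQ1-FCPF, 6 genes were higher with sgRNA than without, beside 3.55% of all genes, with HSPH1 and HSP90AA1 joining the 4 called without replicate 2 alone. In JQ1-FCPF with sgRNA against the control 4 genes were higher (4.21% of all genes), and against JQ1 with sgRNA 6 were (9.76%). In JQ1 without sgRNA against the control 7 genes were lower (13.1% of all genes), HSPA1A, HSPD1 and HSPE1 joining the earlier 4. In JQ1 with sgRNA against the control 5 were lower (11.3%), and between JQ1-FCPF and JQ1 without sgRNA 4 were higher (11.3%). The interaction gave 3 (1.09%), namely HSPA1A, HSPA1B and DNAJB1. For JQ1 without sgRNA against the control, where neither library takes part, the log2 fold change of HSPA1B was -0.68 in this fit and -0.69 with all libraries. Those of the joining genes were -0.24 and -0.25 for HSPA1A, -0.28 and -0.29 for HSPD1, and -0.24 and -0.25 for HSPE1, in the same order.

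Of 3 heat shock factor genes and the HSF1 inhibitor HSBP1, 1 was called in 1 of the 9 comparisons. In that comparison, JQ1 without sgRNA against the control, 942 of 15517 tested genes were called higher. HSF1, the stress-activated factor, averaged 162 ± 13.9 CPM in JQ1-FCPF with sgRNA, 154 ± 7.23 in JQ1-FCPF without sgRNA, 146 ± 6.99 in JQ1 with sgRNA, 143 ± 5.40 in JQ1 without sgRNA and 155 ± 8.83 in the control (SD, n = 3 each), and it was called in none of the 9 comparisons. HSF2 rose in JQ1 without sgRNA, to 24.1 ± 2.11 CPM against 19.2 ± 1.71 CPM in the control, by 0.33 ± 0.11 on the log2 scale (SE, edgeR adjusted p = 0.0483). This call held under 5 of 13 alternatives, with an adjusted p of up to 0.254 by edgeR or DESeq2. HSF4 lay between 13.9 and 28.6 CPM, and HSBP1 between 105 and 149.6 CPM. Neither was called in any of the 9 comparisons. HSPA6, an Hsp70 gene with little expression outside stress, stayed at 3.54 ± 0.82 CPM in JQ1-FCPF with sgRNA, 4.40 ± 0.49 in JQ1-FCPF without sgRNA, 4.27 ± 0.33 in JQ1 with sgRNA, 4.05 ± 0.42 in JQ1 without sgRNA and 4.54 ± 0.26 in the control, and was called in none of the 9 comparisons. HSPA6 was singled out after its values were seen.

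Of 17 other HSF1 target genes, 16 were tested. With sgRNA against without under JQ1-FCPF, 1 rose and none fell, beside 2.06% of all tested genes called higher. This was DNAJB4, a J-domain partner of Hsp70, at 15.8 ± 1.01 CPM with sgRNA against 10.5 ± 0.62 CPM without (SD, n = 3 each), a log2 fold change of 0.59 (edgeR adjusted p = 0.0150). In JQ1 with sgRNA against the control, 3 fell and none rose, beside 7.04% of all tested genes called lower. DNAJA1, another J-domain protein, fell by 0.56 in log2 units (edgeR adjusted p = 0.0144), to 191 ± 9.84 CPM against 280.3 ± 12.7 CPM. CHORDC1, a partner of Hsp90, fell by 0.47 (edgeR adjusted p = 0.0120) and DNAJB6, a J-domain protein, fell by 0.37 (edgeR adjusted p = 0.0324). In JQ1 without sgRNA against the control DNAJB6 alone of these fell, by 0.36 (edgeR adjusted p = 0.0402), and DNAJA1 had -0.42 with 0.0572. There 6.23% of all tested genes were called lower. HSPA1L, an Hsp70 gene of the same cluster as HSPA1A, fell in JQ1-FCPF with sgRNA by 0.87 (log2) against the control (edgeR adjusted p = 0.0225), with 2.57 ± 0.71 CPM against 4.65 ± 0.67 CPM. It was the 1 gene of this list called there, beside 7.21% of all tested genes called in either direction. Against JQ1 with sgRNA, JQ1-FCPF with sgRNA had a log2 fold change of -1.18 for HSPA1L (edgeR adjusted p = 0.00689) and of 0.48 for DNAJB6 (edgeR adjusted p = 0.0202). SERPINH1, a collagen chaperone, had -0.39 under JQ1-FCPF against JQ1, both without sgRNA (edgeR adjusted p = 0.0417). Of 13 alternatives each, 11 kept the calls of DNAJB4, DNAJA1 and CHORDC1 and 7 or 8 kept those of DNAJB6 and SERPINH1. For HSPA1L, 8 kept the call against the control and 10 that against JQ1 with sgRNA.

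Among the other cytosolic partners, none of 10 Hsp90 co-chaperones was called by edgeR in any of the 9 comparisons, where 0 to 3 of them had an unadjusted p under 0.05. Per comparison edgeR called 1 to 2211 of the 15517 tested genes, so 0 of 10 does not show that these genes stayed as they were. DESeq2 was not counted for this list. Of 12 other Hsp70 system genes, BAG1, a nucleotide exchange factor, fell in JQ1 without sgRNA against the control by 0.55 (edgeR adjusted p = 0.0337), to 37.2 ± 2.59 CPM against 54.5 ± 3.02 CPM (SD, n = 3 each). It was the 1 gene of this list called there, beside 6.23% of all tested genes called lower. BAG1 was also higher under JQ1-FCPF than under JQ1, both without sgRNA, by 0.54 (edgeR adjusted p = 0.0497). In that comparison 7.8% of all tested genes were called in either direction. These BAG1 calls held under 7 and 5 of 13 alternatives. In JQ1 with sgRNA against the control, BAG2, an inhibitor of the ubiquitin ligase partner of Hsp70, fell by 0.36 (edgeR adjusted p = 0.0228) and HSPA14, a ribosome-associated Hsp70, fell by 0.34 (edgeR adjusted p = 0.0333). These 2 of 12 genes stood beside 7.04% of all tested genes called lower. Of 8 subunits of TRiC, the cytosolic folding chamber, CCT6A alone was called in any of the 9 comparisons, lower in JQ1 with sgRNA than in the control by 0.34 (edgeR adjusted p = 0.0445). This was 1 of 8 genes, beside the same 7.04%. The calls of BAG2, HSPA14 and CCT6A held under 10, 7 and 5 of 13 alternatives.

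In the organelles, the mitochondrial list of 11 genes gave 1 call with sgRNA against without under JQ1-FCPF, where 4.2% of all tested genes were called lower. GRPEL2, a nucleotide exchange factor of mitochondrial Hsp70, fell by 0.57 (edgeR adjusted p = 0.00622), to 26.4 ± 4.82 CPM with sgRNA against 39.2 ± 2.57 CPM without (SD, n = 3 each). It also fell by 0.61 against the control (edgeR adjusted p = 0.00263) and by 0.49 against JQ1 with sgRNA (edgeR adjusted p = 0.0273). LONP1, a mitochondrial protease, rose in JQ1 with sgRNA against the control by 0.40 (edgeR adjusted p = 0.0270). Of 11 chaperones of the endoplasmic reticulum, 3 rose and none fell with sgRNA against without under JQ1-FCPF, beside 2.06% of all tested genes called higher. HSPA5, the Hsp70 of that compartment known as BiP, rose by 0.57 (edgeR adjusted p = 0.00843), HSP90B1, its Hsp90, rose by 0.38 (edgeR adjusted p = 0.0318) and PDIA6, a protein disulfide isomerase, rose by 0.47 (edgeR adjusted p = 0.0498). HSPA5 measured 1053 ± 244 CPM with sgRNA against 710.1 ± 35.0 CPM without, and it was also higher in JQ1-FCPF with sgRNA than in the control by 0.47 (edgeR adjusted p = 0.0265). In other comparisons, DNAJB11, a J-domain partner of HSPA5, fell in JQ1 with sgRNA against the control by 0.26 (edgeR adjusted p = 0.0424), and HSP90B1 fell in JQ1-FCPF against JQ1, both without sgRNA, by 0.34 (edgeR adjusted p = 0.0443). With sgRNA against without under JQ1-FCPF, the calls of GRPEL2, HSPA5, HSP90B1 and PDIA6 held under 12, 11, 9 and 6 of 13 alternatives. DNAJB11 and the fall of HSP90B1 held under 4 and 6, LONP1 under 8, HSPA5 against the control under 8, and GRPEL2 under 13 against the control and 8 against JQ1. The difference between these lists and the 10 chaperones was not tested.

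Markers of other cell types give a measure of what moved with these groups. Of 4 fibroblast markers 1 was tested, COL1A1, which rose with sgRNA against without under JQ1-FCPF by 1.30 in log2 units (edgeR adjusted p = 0.00165), at 4.86 ± 1.11 CPM against 1.96 ± 0.05 CPM (SD, n = 3 each). The 4 fibroblast markers summed to 4.25 to 6.67 CPM with sgRNA and to 1.97 to 2.18 CPM without, with the defining markers DCN and LUM at most 0.383 and 0.0655 CPM in any library. Of the epithelial markers EPCAM lay between 64.0 and 81.9 CPM and was called in no comparison. CDH1 lay at most at 0.293 CPM and was not tested, as it did not pass the filter on low counts. Against the control, COL1A1 rose by 1.13 in JQ1-FCPF with sgRNA (edgeR adjusted p = 0.0041) and by 0.73 in JQ1 with sgRNA (edgeR adjusted p = 0.0431). Of the erythroid markers, TAL1, an erythroid transcription factor, fell in JQ1-FCPF with sgRNA by 0.53 against JQ1-FCPF without sgRNA (edgeR adjusted p = 0.0116), by 0.61 against the control (edgeR adjusted p = 0.00324) and by 0.50 against JQ1 with sgRNA (edgeR adjusted p = 0.0302). TFRC, the transferrin receptor, fell in JQ1-FCPF with sgRNA by 0.69 (edgeR adjusted p = 0.00237) and in JQ1 with sgRNA by 0.57 (edgeR adjusted p = 0.00896), each against the control. TFRC fell by 0.63 in JQ1 without sgRNA against the control (edgeR adjusted p = 0.00619) and HBE1, embryonic globin, rose by 0.50 (edgeR adjusted p = 0.0123). HBE1 also rose in JQ1 with sgRNA against the control by 0.47 (edgeR adjusted p = 0.0160), and fell in JQ1-FCPF against JQ1, both without sgRNA, by 0.43 (edgeR adjusted p = 0.0357). Of 13 alternatives each, 13, 12 and 6 kept the calls of COL1A1, in the order given above. For TAL1 11, 13 and 7 did, for TFRC 13, 12 and 12, and for HBE1 10, 9 and 7, likewise in order. The part of these markers in the chaperone values was not tested. In a bulk sample a smaller share of some cells and less RNA per cell cannot be told apart.

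Across the 15 libraries the chaperone genes varied together. Pearson's r between log2 CPM values was above 0 in all 45 pairs, with a range of 0.11 to 0.92 and a median of 0.60, and after removal of group means the range was 0.28 to 0.97 with a median of 0.66. HSPA1A and HSPA1B had 0.92 and 0.97 in these measures, and HSPA1B and DNAJB1 had 0.90 and 0.89. These points share libraries, groups and depth, and HSPA1A and HSPA1B may also share reads, so the values are a description. Similarity of other genes was taken as Pearson's r over 15 libraries with the mean standardised chaperone level, where HSPA1A and HSPA1B were summed and counted once. Genes outside the lists with the most similar course were DYNLL2 and MARCKSL1 at 0.96, HMGN2 at 0.95, and EBNA1BP2, ACTG1 and MAPKAP1 at 0.94.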

How the data were processed

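The files hold raw read counts per gene, 1 file per library with 57500 gene rows, as the authors deposited them, and per the file headers each row lists a gene's exon blocks and their summed length. No source used here gives the aligner, the counting settings or the use of strand. Of the identifiers, 56898 were found in GENCODE release 29, 96.3% with the same ends, and 40907 were named by a symbol table. In R 4.3.3, edgeR 4.0.16 tested the 15517 genes kept by filterByExpr, after TMM scaling, by quasi-likelihood with 5 group means over the 15 libraries (biological coefficient of variation 11.1%). Genes with a Benjamini-Hochberg adjusted p under 0.05 over all tested genes were called, in 9 comparisons. CPM values use the scaled totals. The test was checked on simulated data. Replicates of a group always differed by more than counting noise (chi-square over its degrees of freedom 2.96 or more). Pseudogene rows held at most 0.421% of the counts of any chaperone gene.

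The fits were repeated with DESeq2 1.42.0, with edgeR on DESeq2 size factors, with no filter, with only the compared groups, with a replicate block, with HSPA1A and HSPA1B summed, and leaving out each library or 2 together. Named genes are the 10 chaperones, the heat shock factors, up to 4 called genes per list and comparison discussed, and the 6 genes most alike. The members and lists were chosen with earlier results of these data known. Sequences come from RefSeq tables of GRCh38.p14. The level of 1 B cell marker is not reported here.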

Additional observations from a re-analysis of the deposited data

How the results depend on the processing

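Counts below are of the 10 chaperone genes called by each alternative, and the next paragraph gives the counts over all genes. With JQ1-FCPF, sgRNA against none gave 1 call, 2 without the filter, 0 with only the compared groups, 6 without the 2 libraries that stand apart (replicate 2 of JQ1-FCPF with sgRNA and replicate 1 of JQ1 with sgRNA), and 0 to 4 when 1 library was left out. JQ1 without sgRNA against the control gave 4, with DESeq2 1, with only those groups 7, without those 2 libraries 7, and 0 to 3 without 1 library. JQ1 with sgRNA against the control gave 3, unfiltered 6, with only those groups 5, without those 2 libraries 5, and 0 to 3 without 1 library. JQ1-FCPF with sgRNA against the control gave 0, unfiltered 1, without those 2 libraries 4, and 0 to 3 without 1 library. JQ1-FCPF against JQ1, both with sgRNA, gave 2, with DESeq2 4, unfiltered 4, with only those groups 0, without those 2 libraries 6, and 0 to 7 without 1 library. The same pair without sgRNA gave 0, unfiltered 2, with only those groups 4, without those 2 libraries 4, and 0 without any 1 library. The interaction gave 0, unfiltered 1, without those 2 libraries 3, and 0 to 3 without 1 library. The sgRNA effect under JQ1, and JQ1-FCPF without sgRNA against the control, gave 0 under all 13 alternatives. Where only some groups or libraries are fitted the spread is estimated from fewer samples, and why the counts changed was not tested.

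Of 127 alternative values of the 10 calls, 86 stayed called in the same direction, 41 were no longer called and 0 changed sign. With the title letter as a replicate block the counts were 1, 0, 4 and 3 in the first 4 comparisons, as without it. The letters gave no sign of pairing, since same-lettered libraries had correlations of -0.238 to 0.311 (median -0.0085) in 30 pairs, 4 of them over 0.1. Over all genes the counts called moved with the setting as well, so a change in the chaperone counts cannot be read alone. With JQ1-FCPF, sgRNA against none gave 970 genes, 428 to 1129 without 1 library and 351 to 1600 under the other alternatives. In the same order, JQ1 without sgRNA against the control gave 1908, 430 to 1338 and 1739 to 4521. JQ1 with sgRNA against the control gave 2211, 726 to 1858 and 1998 to 3582. JQ1-FCPF with sgRNA against the control gave 1119, 542 to 1201 and 543 to 1745. JQ1-FCPF against JQ1, both with sgRNA, gave 458 genes, 68 to 2757 without 1 library and 11 to 3176 under the other alternatives. The same pair without sgRNA gave 1210, 76 to 973 and 1122 to 3554, and the interaction gave 122, 50 to 346 and 81 to 511. Depth limits HSPA1L, HSPA6 and COL1A1, at a few CPM, more than the chaperone genes, each of which had at least 957 counts in every library.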
